A study of Arabidopsis thaliana with 6 samples.

Results

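The glutathione transferase genes GSTU1 (AT2G29490), GSTU2 (AT2G29480), GSTU3 (AT2G29470), GSTU4 (AT2G29460), GSTU5 (AT2G29450), GSTU6 (AT2G29440) and GSTU7 (AT2G29420) form a tandem cluster on chromosome 2 of Arabidopsis thaliana. They were chosen by locus, and each of the 7 has 1 probe among the 21342 loci that the arrays name. The series holds 6 microarrays with 2 colours, made from plants aged 28 days and sampled whole but without roots. On 4 arrays plants given 5 mM salicylic acid (SA), a hormone of plant defence, were labelled with Cy5 and untreated plants with Cy3, both of the Columbia ecotype. Treatment lasted 2, 5, 10 or 24 h, and each duration has a single array. On 2 arrays the Cy5 channel held plants overexpressing SIBA, the gene AT3G56710 that the reference table names SIB1, against plants with the vector, and the ecotype is not stated for these. The overexpressors appear here as line 1 (CA32F3) and line 2 (CA32F4). No label gives the promoter that drives SIBA, or says whether these plants came from separate transformations.

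Glutathione transferases join the tripeptide glutathione to reactive or foreign molecules. In plants the tau class is large, its genes often lie in tandem arrays, and its members are known for their response to herbicide safeners, oxidative stress and defence hormones. The conjugates are carried into the vacuole by transporters of the ABCC family, and in Arabidopsis TGA transcription factors with the protein SCL14 act on several detoxification genes. Within this cluster the RefSeq gene table of assembly TAIR10.1 gives the order GSTU7, GSTU6, GSTU5, GSTU4, GSTU3, GSTU2 and GSTU1 by position, and coordinates are left out because no build is named in the array files. Probe, promoter and protein sequences were not used here, and how far a probe also binds the RNA of a neighbouring copy was not tested.

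Ratios are given on the log2 scale, Cy5 plant over Cy3 control of the same array, so that 1 is a doubling and 0 is no difference. The 2 h array and both overexpressor arrays stood apart: their median Cy5 signals over background were 21.5, 79.0 and 84.0, those of the later SA arrays were 206.5, 300.0 and 404.0, and the 3 dim files list other columns than the 3 bright ones. SIB1 stood at log2 5.25 in line 1 and 5.59 in line 2, as the labels say, and at 4.46, 3.71 and 2.89 after 2, 5 and 10 h of SA, with its 24 h spot left out as an outlier. No member's spot was saturated or marked as an outlier on any of the 6 arrays. Without a dye swap, a preference of a probe for 1 dye moves its ratio in the same direction on every array. The labels do not say whether the untreated RNA or the vector RNA was the same on several arrays, and the error behind each p-value is the spread from array to array, part of which may be technical. In RNA from whole plants, a change in the number of cells of a type and a change in RNA per cell cannot be told apart. All 4 leaf markers (RBCS1A, RCA, LHCB2.1 and LHCB3) were well above background at 5, 10 and 24 h, as most probes were, and RBCS1A was saturated on 6 arrays.

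GSTU7 was the member that was highest at the first time. From 3.82 at 2 h the log2 ratio went to 3.43, 2.52 and 2.02 at the later times, or 14.1-, 10.7-, 5.74- and 4.05-fold. The Cy5 signal above local background was 1597, 2317, 2275 and 1546 at these times, and the control signal in Cy3 was 66, 145, 204 and 200. Every SA array thus held GSTU7 above its control, and the 2 h ratio ranked 52nd from the top of 21490 probes with a value. In the overexpressors the loess ratio was -0.04 in line 1 and 0.996 in line 2. The Cy5 signals there were 133 and 397 over control signals of 74 and 75.

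GSTU1 was above its control at all 4 times with a different course. Its log2 ratio was 1.65, 3.24, 2.71 and 2.30 at 2, 5, 10 and 24 h, or 3.13-, 9.42-, 6.53- and 4.92-fold. The Cy5 signal was 146, 679, 1146 and 642, and the control signal was 44.9, 28.4, 84 and 61. The 5 h array held the highest ratio and the 2 h array the lowest. In line 1 and line 2 GSTU1 lay at -0.12 and -0.20 by the loess ratio and at 0.069 and 0.070 by the scanner software's ratio, where Cy5 signals of 32.4 and 38.4 stood over control signals of 38 and 44.4.

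GSTU4 reached the highest ratio of the cluster. Ratios were 0.90, 4.66, 4.40 and 2.62 at 2, 5, 10 and 24 h, with Cy5 signals of 73, 1775, 2844 and 1356 and control signals of 52.2, 22.8, 57 and 109. The 2 h value of 0.90 is by loess and depended on the processing. It was 0.93 with median centring, 1.23 with the series table, 1.51 with a background offset of 16 and 3.79 with the scanner software's ratio. The control was not well above background at 5 h, which leaves a lower bound, at least 23.9-fold. Such bounds set the lit channel against the higher of the dim probe's own signal and the lowest signal well above background on that array. They are computed per channel after loess and quantile normalization of brightness, hold for that processing only, and are open to dye bias. At 10 h and 24 h GSTU4 was measured in both channels, at 21.1-fold and 6.13-fold, and the 10 h ratio ranked 12th of 21475 probes. In the overexpressors GSTU4 stood at 0.36 in line 1 and 0.74 in line 2, with Cy5 signals of 47.6 and 70 over control signals of 27.5 and 22.9. These ratios depended on the processing, at 2.34 and 2.81 with the scanner software's ratio and 0.78 and 1.54 with the series table.

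GSTU3 had its lowest ratio at 2 h and its highest at 24 h. The log2 ratio was 0.09, 0.50, 2.49 and 4.18 at 2, 5, 10 and 24 h. The Cy5 signal was 11, 28.6, 450 and 1775, and the control signal was 47.3, 13.8, 38 and 31.6. On the 2, 5 and 10 h arrays the control was at a surrogate value or not well above background, which gives bounds of at least 1.07-, 1.41- and 4.82-fold. How near GSTU3 was to its control at 2 and 5 h is therefore not measured, and the scanner software's log2 ratio there was 1.45 and 1.86. With median centring it was 0.00 and 0.38, under the loess values behind those bounds. At 24 h the ratio was 18.2-fold and ranked 9th of 19778 probes, with a control signal equal to the lowest that was well above background on that array. In line 1 and line 2 GSTU3 stood at 0.00 and 0.03, with Cy5 signals of 9.6 and 8.9.

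GSTU2, the next gene of the cluster, also had its lowest ratio at 2 h and its highest at 24 h. Its log2 ratio was 0.15, 0.62, 1.77 and 2.34 at 2, 5, 10 and 24 h, from Cy5 signals of 15.7, 36.3, 248 and 366 over control signals of 49.4, 14.1, 41 and 25.9. The control was dim on all 4 SA arrays, and the bounds by the loess ratio are at least 1.11-, 1.54-, 3.17- and 5.07-fold. With median centring the log2 ratios were 0.07, 0.51, 1.73 and 2.25, each a little under the loess value. In line 1 both channels were dim, and in line 2 the control was dim, with log2 ratios of -0.05 and 0.12. No level of GSTU2 in untreated or vector plants can therefore be given.

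GSTU5 had its highest SA ratio at 5 h. By loess its log2 ratio was 0.20, 0.97, 0.09 and -0.01 at 2, 5, 10 and 24 h, with Cy5 signals of 609, 1127, 1257 and 2057 over control signals of 367, 461, 660 and 1096. All of these signals were measured, so the small ratios do not come from a dim channel. With median centring they were 0.87, 1.10, 0.37 and 0.35. By loess GSTU5 was at -0.03 in line 1 and at 1.17, or 2.25-fold, in line 2. The Cy5 signals there were 575 and 1563 over control signals of 252 and 294. With median centring GSTU5 was at 0.55 in line 1 and 1.84 in line 2. Its highest ratios were thus in line 2 and on the 5 h SA array.

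GSTU6 had log2 ratios close to 0 by the loess ratio with offset 50, which pulls dim spots toward 0. They were 0.06, 0.16, -0.18 and 0.29 at 2, 5, 10 and 24 h, and 0.01 and -0.06 in line 1 and line 2. The Cy5 signals of 6.2, 18, 27.4 and 69 on the SA arrays and of 14.5 and 17.7 in the lines stood over control signals of 39, 18.7, 55, 44, 27.1 and 32.3. The control was dim at 5 h and in both lines, so a small change of GSTU6 would not have been detectable there. With the scanner software's ratio GSTU6 was at 0.69 at 5 h, -0.60 at 10 h and 1.12 in line 2.

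**Figure D1:**
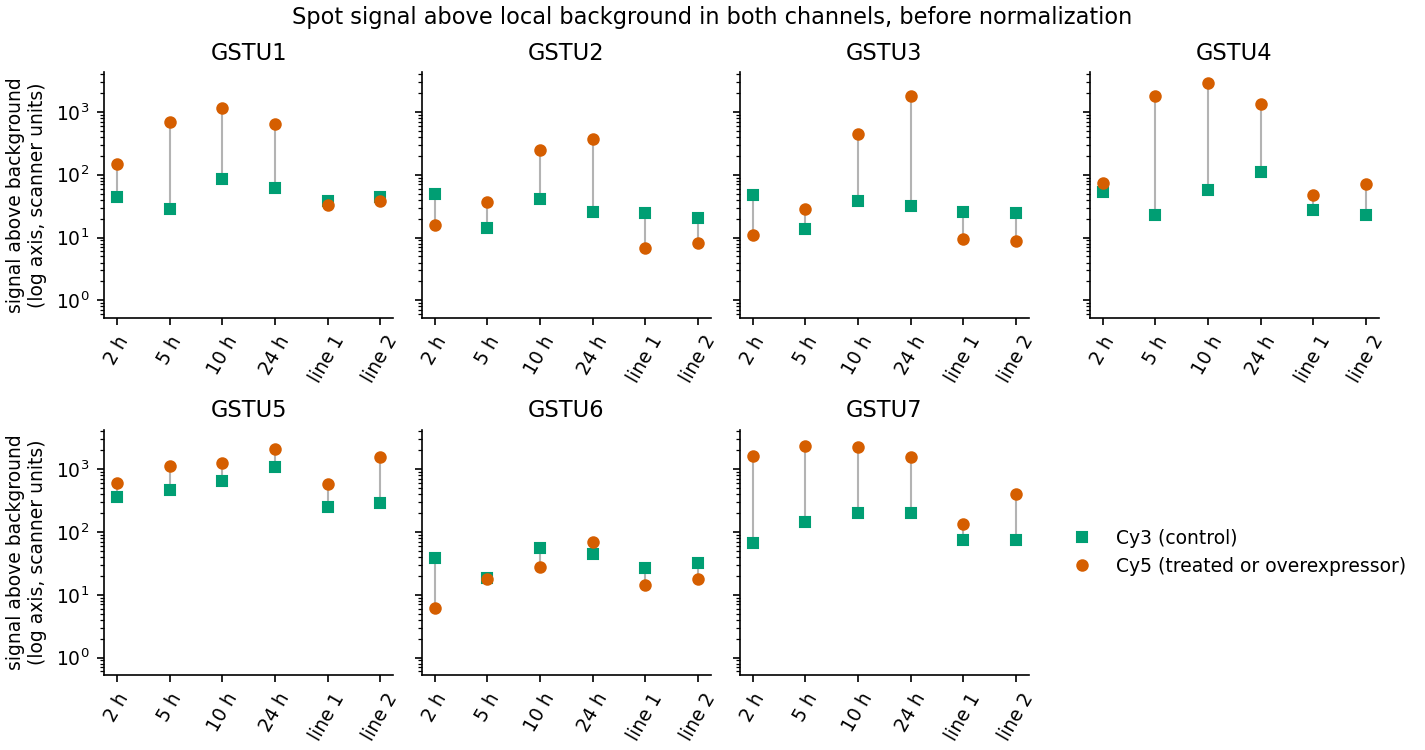
Spot signal above local background for each of the 7 genes on the 6 arrays, in scanner units on a log axis and before normalization; green squares are the Cy3 control, orange circles the Cy5 plant treated with salicylic acid (2 to 24 h) or overexpressing SIB1 (line 1, line 2), and a grey line joins both channels of an array. GSTU3 goes from 11 at 2 h to 1775 at 24 h in Cy5 over control signals of 13.8 to 47.3, while the Cy5 signals of GSTU6 stay between 6.2 and 69; levels of different genes cannot be set against each other because each probe binds differently.

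**Figure D2:**
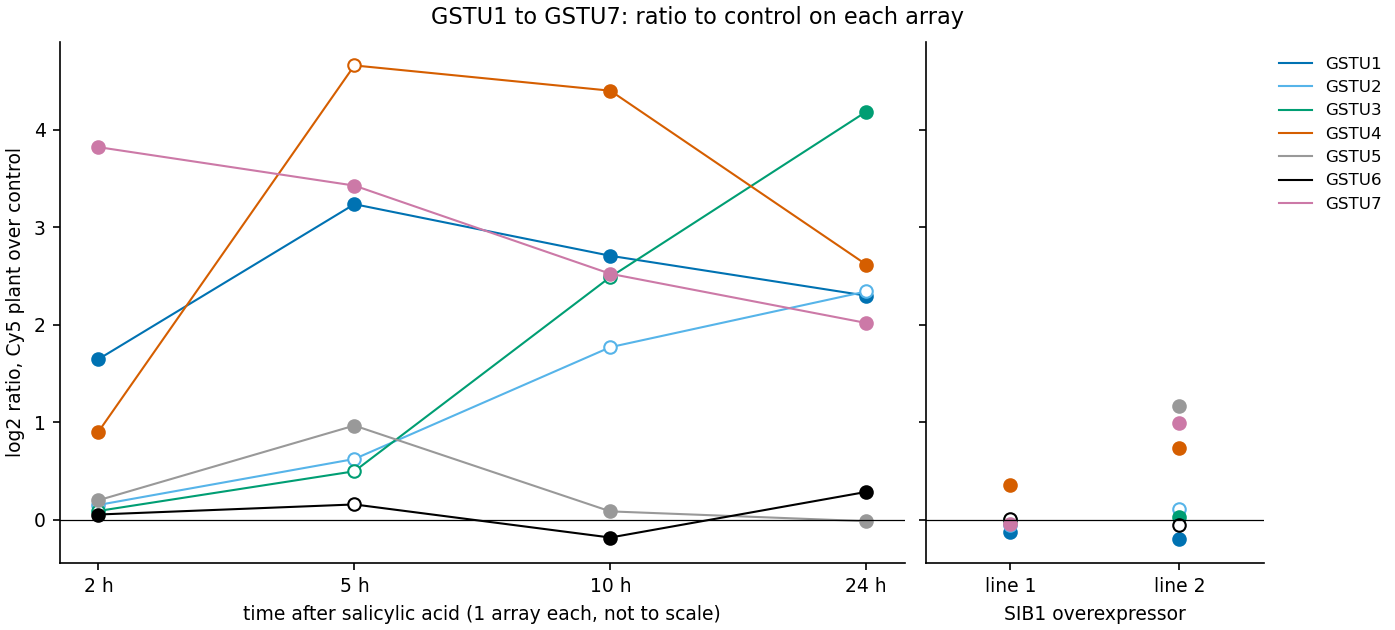
Log2 ratio of the Cy5 plant over its control for the 7 genes on each array, with 1 array per time or line and times drawn at equal spacing; open circles mark a control channel, or both channels, at a surrogate value or not well above background. GSTU7 is highest at 2 h (3.82), GSTU1 and GSTU4 at 5 h (3.24 and 4.66) and GSTU2 and GSTU3 at 24 h (2.34 and 4.18), while GSTU5 and GSTU6 stay under 1 in the SA arrays.

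Levels in each channel over the 5, 10 and 24 h arrays were compared after quantile normalization of brightness. The Cy5 level ranged over 1.39 on the log2 scale for GSTU7 and its control level over 0.42, and these ranges were 1.38 and 0.81 for GSTU4 and 1.03 and 0.71 for GSTU1. In Cy5, GSTU3 ranged over 3.20 and GSTU2 over 1.32, and their control ranges say little because those channels were dim or at the lowest signal well above background. The control of GSTU4 was likewise dim at 5 h. For GSTU5 the control channel varied more, 0.93 against 0.28 in Cy5, and for GSTU6 both varied little, 0.36 and 0.26. The time of the highest ratio was the same with median centring, a smaller background offset, the scanner software's ratio, the deposited series table and outlier spots kept, for each member except GSTU6. The lowest time of GSTU1 and GSTU4 was 2 h, except with the scanner software's ratio, which put it at 24 h.

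The question of the SA arrays is which genes respond to SA, and with 1 array per time the only error available is the spread between times. The mean log2 ratio over the 4 arrays was 3.14 ± 1.75 (SD, n = 4) for GSTU4, 2.95 ± 0.824 for GSTU7, 2.47 ± 0.670 for GSTU1, 1.82 ± 1.89 for GSTU3, 1.22 ± 1.01 for GSTU2, 0.31 ± 0.446 for GSTU5 and 0.08 ± 0.198 for GSTU6. GSTU1 rose 5.55-fold (95% interval of the log2 mean 1.77 to 3.18, limma adjusted p = 0.0214) and GSTU7 rose 7.71-fold (2.09 to 3.80, adjusted p = 0.0221). A call needed a Benjamini-Hochberg adjusted p under 0.05 over 21280 probes and at least 2-fold. By this rule 2 of 7 members were higher and 0 lower, where 2.8% of all probes were called higher and 0.954% lower, a total of 596 and 203 probes. With median centring the split over all probes was 1040 higher and 86 lower, and with the deposited series table it was 893 and 532. GSTU4 missed the rule (interval 1.35 to 4.94, adjusted p = 0.0653), as did GSTU2 (0.18 to 2.27, adjusted p = 0.144) and GSTU3 (-0.13 to 3.76, adjusted p = 0.217), whose ratios differed most between times. GSTU5 (-0.17 to 0.79, adjusted p = 0.377, or a mean of 0.67 and 0.0614 with median centring) and GSTU6 (-0.18 to 0.34, adjusted p = 0.676) had intervals that include 0 and reach no further than a doubling.

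Both calls depended on which arrays were kept. Without the 5, 10 or 24 h array the adjusted p of GSTU1 was 0.0784, 0.0747 and 0.0769 and that of GSTU7 was 0.0941, 0.0726 and 0.0531, so neither passed, at means of 2.22 to 2.53 and 2.79 to 3.26. Without the dim 2 h array GSTU1, GSTU7 and GSTU4 all passed (adjusted p = 0.0342, 0.0383 and 0.0405). GSTU4 also passed with median centring (adjusted p = 0.0425), offset 16 (0.0327), the scanner software's ratio (0.0167), the series table (0.0309) and a variance that follows brightness (0.0457). GSTU2 passed with the scanner software's ratio (0.0191) and the series table (0.0494). In the order of the means, the gaps between neighbouring members were 0.20 to 0.91, all under the larger SD of the pair. That SD is the spread over times, and differences between members within arrays were not tested.

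**Figure D3:**
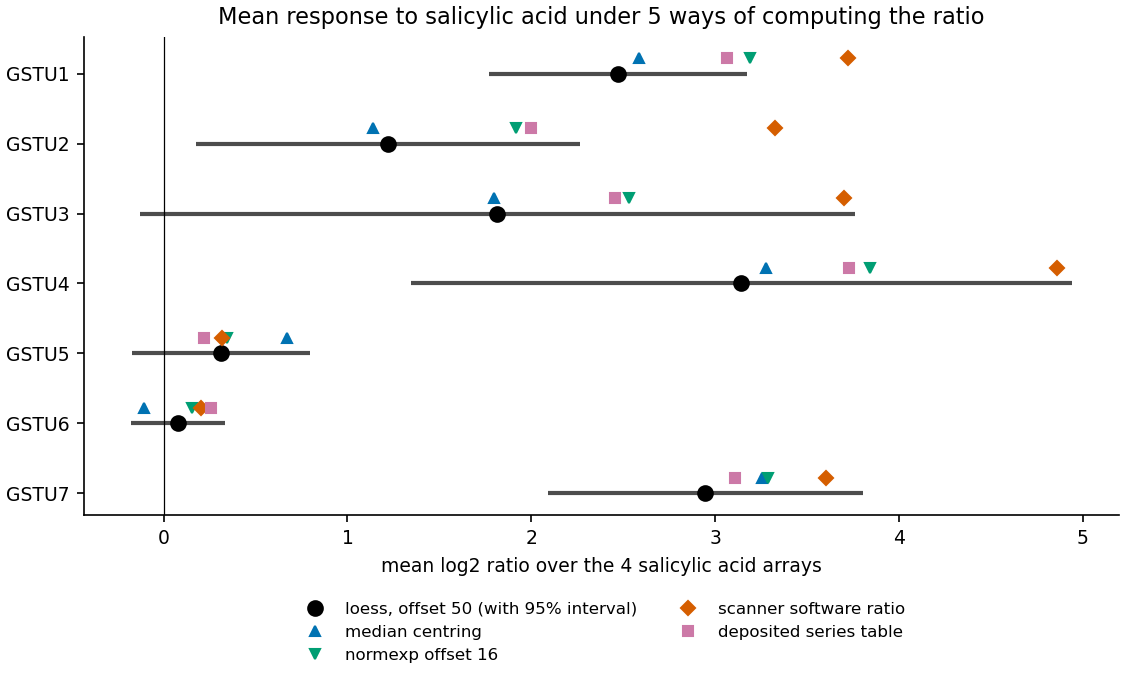
Mean log2 ratio over the 4 salicylic acid arrays for each gene; black circles are the values from loess normalization with a background offset of 50 and the grey bars their 95% intervals, and coloured symbols give the same mean from 4 other ways of computing the ratio. GSTU1, GSTU2, GSTU3, GSTU4 and GSTU7 lie above 1 under each of the 5 ways, and the scanner software's ratio is the highest for these 5, reaching 4.86 for GSTU4.

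By size alone, the members past 2-fold higher were 2 of 7 at 2 h (GSTU1, GSTU7), 3 at 5 h (with GSTU4), 5 at 10 h and 5 at 24 h (with GSTU2 and GSTU3), and none was 2-fold lower on any array. Over all probes 3.84%, 6.09%, 7.3% and 5.31% were past 2-fold higher at these times and 2.31%, 3.66%, 4.43% and 5.63% past 2-fold lower. The median log2 ratio of the 7 members was 0.20, 0.97, 2.49 and 2.30, while the median over all probes lay between -0.01 and 0.02. GSTU1 and GSTU7 were past 2-fold on all 4 SA arrays, as were 337 of 19736 probes with 4 values (1.71%), and 0 members were 2-fold lower on all 4, as 0.248% of probes were.

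Time was tested with a straight line on log2 of hours. The slope, in log2 units per doubling of hours, was 1.20 for GSTU3 (95% interval 0.68 to 1.72), 0.65 for GSTU2 (0.40 to 0.90) and -0.53 for GSTU7 (-0.74 to -0.32). Most of the points behind the slopes of GSTU3 and GSTU2 are lower bounds by the loess ratio. The control was dim at 2, 5 and 10 h for GSTU3 and at all 4 times for GSTU2. The intervals take these points as measured and are not corrected for the number of probes, and with the correction limma gave an adjusted p of 0.961 for GSTU3, GSTU2 and GSTU7. The slopes of GSTU4, GSTU1, GSTU6 and GSTU5 were 0.44, 0.13, 0.03 and -0.12, with intervals that include 0. A line describes GSTU1 and GSTU4 poorly, since both were highest in the middle. Limma called 0 of 7 members and 0 of 21280 probes (0%) for the slope, and 3 members and 980 probes had an unadjusted p under 0.05.

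The overexpressor arrays ask which genes differ with SIB1. The mean over line 1 and line 2 was 0.57 ± 0.849 (SD, n = 2) for GSTU5, 0.55 ± 0.272 for GSTU4, 0.48 ± 0.732 for GSTU7, 0.03 ± 0.119 for GSTU2, 0.02 ± 0.0199 for GSTU3, -0.02 ± 0.0494 for GSTU6 and -0.16 ± 0.0550 for GSTU1. Limma called 0 of 7 members and 0 of 21482 probes (0%), with 0.664 as the smallest adjusted p over all probes. With the scanner software's ratio the mean of GSTU4 was 2.58, and it was not called. At an unadjusted p under 0.05 there were 995 probes and 1 member, GSTU4 (adjusted p = 0.664, 95% interval 0.03 to 1.06, above 0 in both lines). GSTU5 and GSTU7 had intervals of -0.94 to 2.08 and -0.82 to 1.78, which include 0 and extend past a doubling upward. With 2 arrays, a value without 1 of them is the ratio of the other and has no test.

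The lines differed from each other. In line 1, 0 of 7 members were past 2-fold, where 0.191% of all probes were 2-fold higher and 0.0838% lower. In line 2 it was by loess GSTU5 alone (1.17), where 1.88% of probes were 2-fold higher and 2.26% lower. By loess GSTU7 (0.996, 1.99-fold) lay just under that limit in line 2, and both GSTU5 and GSTU7 were within 0.04 of 0 in line 1. GSTU7 passed the limit in line 2 with median centring (1.58), offset 16 (1.23), the scanner software's ratio (1.21) and the series table (1.22). In line 1 median centring put GSTU5 at 0.55 and GSTU7 at 0.18, and the scanner software's ratio put them at -0.07 and -0.26. The difference between the lines was not tested, since each has 1 array. GSTU1 through GSTU3, which were at 2.30 to 4.18 after 24 h of SA, lay between -0.20 and 0.12 in both lines by loess. GSTU2 was dim in 1 or both channels of each line, and GSTU3 had Cy5 signals of 9.6 and 8.9. In line 1 and line 2 median centring put GSTU2 at -0.65 and -0.39 and GSTU3 at -0.59 and -0.48. The scanner software's ratio gave 0.00 and 0.73 for GSTU2 and -0.38 and 0.23 for GSTU3. A lack of change of GSTU2 and GSTU3 in the lines is therefore not shown.

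The difference between the SA mean and the overexpressor mean, fitted over 6 arrays, was 2.63 for GSTU1 (95% interval 1.56 to 3.69, limma adjusted p = 0.127), 2.59 for GSTU4 (-0.15 to 5.34, adjusted p = 0.438) and 2.47 for GSTU7 (1.01 to 3.92, adjusted p = 0.203). It was 1.80 for GSTU3 (adjusted p = 0.616), 1.19 for GSTU2 (0.537), 0.10 for GSTU6 (0.829) and -0.26 for GSTU5 (0.848). GSTU5 was the 1 member whose mean was higher in the overexpressors, a sign that turned without line 2, to 0.34. Limma called 0 of 7 members, where 0.0605% of all probes were called higher with SA and 0.00466% lower, and 2 members (GSTU1 and GSTU7) had an unadjusted p under 0.05. With the smaller background offset of 16 GSTU1 was called (3.46, adjusted p = 0.0416). The sets also differ in the kind of control, untreated or vector, and in array brightness and file layout, apart from the dim 2 h array. These differences and that between SA and SIB1 overexpression cannot be told apart here.

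Likeness between members was measured as the root mean square (RMS) difference of log2 ratio over the 6 arrays. The closest pairs were GSTU5 with GSTU6 (0.63) and the neighbouring genes GSTU2 with GSTU3 (0.81). GSTU1 differed by 1.02 from GSTU7, at the other end of the cluster, and by 1.05 from GSTU4, and the farthest pair was GSTU4 with GSTU6 (2.83). These values describe shape and size together, and 837 of 19578 loci with 6 values were closer to GSTU2 than GSTU3 was.

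The loci nearest to each member were named by the same measure, leaving the members out. For GSTU7 they were TCH4, a xyloglucan-modifying enzyme gene known for its response to touch (RMS 0.260), and the monooxygenase gene MO1 (0.343). TCH4 stood at 3.84, 2.95, 2.32 and 1.75 at 2, 5, 10 and 24 h and at -0.04 and 0.75 in line 1 and line 2. For GSTU1 they were the glycosyltransferase gene UGT87A2 (0.176) and the zinc finger gene ZAT7 (0.230), and for GSTU4 AT5G24210 (0.438) and AT1G10585 (0.457). For GSTU3 they were TI1, a trypsin inhibitor gene (0.149), and TPX2, a thioredoxin-dependent peroxidase gene (0.252), and TI1 stood at 0.12, 0.58, 2.15 and 4.19 over the SA times. For GSTU2 they were the nitrate transporter gene NRT2.5 (0.0758) and AT5G09290 (0.108), for GSTU5 AT1G27470 (0.173) and the ABC protein gene ABCF1 (0.183), and for GSTU6 the auxin synthesis gene YUC8 (0.0303) and AT1G43777 (0.0441). The count of loci within 0.5 differed widely, with 2 for GSTU4, 4 for GSTU3, 7 for GSTU7, 45 for GSTU1, 91 for GSTU2, 731 for GSTU5 and 13429 for GSTU6. It is not a measure of how rare a time course is, since it also depends on how far a member's ratios lie from 0.

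The other genes of glutathione conjugation were read from lists. Of 21 other tau genes, 3 were called higher over the SA arrays, 0 lower and 18 not called. Over all probes 2.8% were called higher and 0.954% lower. The median of these tau genes was 0.24, against 1.82 in the cluster and -0.01 over all probes. The 3 were GSTU24 (4.42 ± 0.664, adjusted p = 0.0120), GSTU19 (2.58 ± 0.305, adjusted p = 0.0112) and GSTU11 (1.87 ± 0.400, adjusted p = 0.0171), each with n = 4 and GSTU11 chosen after its values were seen. The spot of GSTU19 was saturated at 5 and 10 h, so its mean and SD rest in part on saturated signals. GSTU24 stood at 4.48, 5.12, 4.56 and 3.52 over the 4 times, the 2 h value being against a surrogate signal. The lowest were GSTU20 (-1.77, adjusted p = 0.0796) and GSTU18 (-0.89, adjusted p = 0.0930), which did not pass.

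Of 13 genes of the phi class, another plant class of glutathione transferases, 4 were called higher and 0 lower. Over all probes these shares were 2.8% and 0.954%, and the phi median was 0.59. The 4 called were GSTF6 (2.67, adjusted p = 0.0417), GSTF8 (2.63, 0.0422), GSTF7 (2.07, 0.0396) and GSTF2 (1.93, 0.0124), the last pair being chosen after their values were seen. GSTF11, of glucosinolate synthesis (-1.15, adjusted p = 0.0571), and GSTF12, which serves anthocyanin transport (-0.69, adjusted p = 0.352), were lowest and did not pass. In line 1 and line 2 GSTF2 was at 1.73 and 2.73, GSTF6 at 0.97 and 1.24 and GSTF7 at 0.96 and 1.21. GSTF8 was at -0.14 and -0.16, and limma gave each of these 4 an adjusted p of 0.664. GSTF3, also chosen after its values were seen, was not called over the SA arrays (2.46, adjusted p = 0.0651). It stood at 0.93 in line 1 and 1.88 in line 2 (adjusted p = 0.664). GSTF6 and GSTF7 are known as near-identical copies, and how far their probes share signal was not tested.

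Of 7 genes that make, recycle or break down glutathione, limma called 0, with a median of 0.41 and 1 unadjusted p under 0.05. The glutathione synthetase gene GSH2 stood at 1.29 (adjusted p = 0.125) and the transpeptidase gene GGT4 at 0.75 (0.196), while GGT1 was at -0.26 (0.611) and the glutathione reductase gene GR2 at -0.60 (0.233). Of the 5 ABCC transporters, ABCC4 was called higher (1.69 ± 0.516, n = 4, adjusted p = 0.0254), and ABCC3 (1.33, 0.112), ABCC2 (0.49, 0.429), ABCC5 (0.30, 0.596) and ABCC1 (0.05, 0.955) were not. Of the 4 regulators limma called 0, with 1 unadjusted p under 0.05. TGA5 stood at 0.46 (adjusted p = 0.153), SCL14 at 0.22 (0.227), TGA6 at 0.00 (0.990) and TGA2 at -0.05 (0.759), the last pair without a 24 h value. In the overexpressors limma called 0 of 21482 probes, and so 0 genes in each of these lists.

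The loci around the cluster, from AT2G29300 to AT2G29600, were read beside it. Of 21 flanking loci with a probe, 2 were called higher over the SA arrays and 0 lower, where 2.8% and 0.954% of all probes were. No flanking locus was past 2-fold on all 4 arrays, where 1.71% of probes were 2-fold higher, and the flanking median was -0.04. The 2 calls were TOPP1, a protein phosphatase gene (1.24, adjusted p = 0.0376), and AT2G29500, next to GSTU1 and annotated in the files as a putative small heat shock protein (2.05, 1.82 and 3.32 at 2, 5 and 10 h, with the 24 h spot left out, adjusted p = 0.0419). SAG13, a gene known from leaf senescence, was past 2-fold at 5, 10 and 24 h (2.17, 1.22 and 3.88) but not called (adjusted p = 0.154). Past 2-fold lower at some time were AT2G29310 (-2.26 and -1.74 at 5 and 10 h), AT2G29360 (-1.13 at 5 h) and the tubulin gene TUB7 (-1.10 and -1.04 at 5 and 10 h), none of them called. These 6 were chosen after their values were seen. MTPB1, which overlaps GSTU7 in the reference table, stayed at 0.10, -0.01, -0.00 and 0.11, beside 3.82 to 2.02 for GSTU7. Inside the cluster the order of genes was not an order of ratios, since GSTU6 and GSTU5 lie between GSTU7 and GSTU4. The reference table lists 3 further loci within the cluster, of which 0 have a probe, and GSTU6 and GSTU2 each overlap 1 of them.

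**Figure D4:**
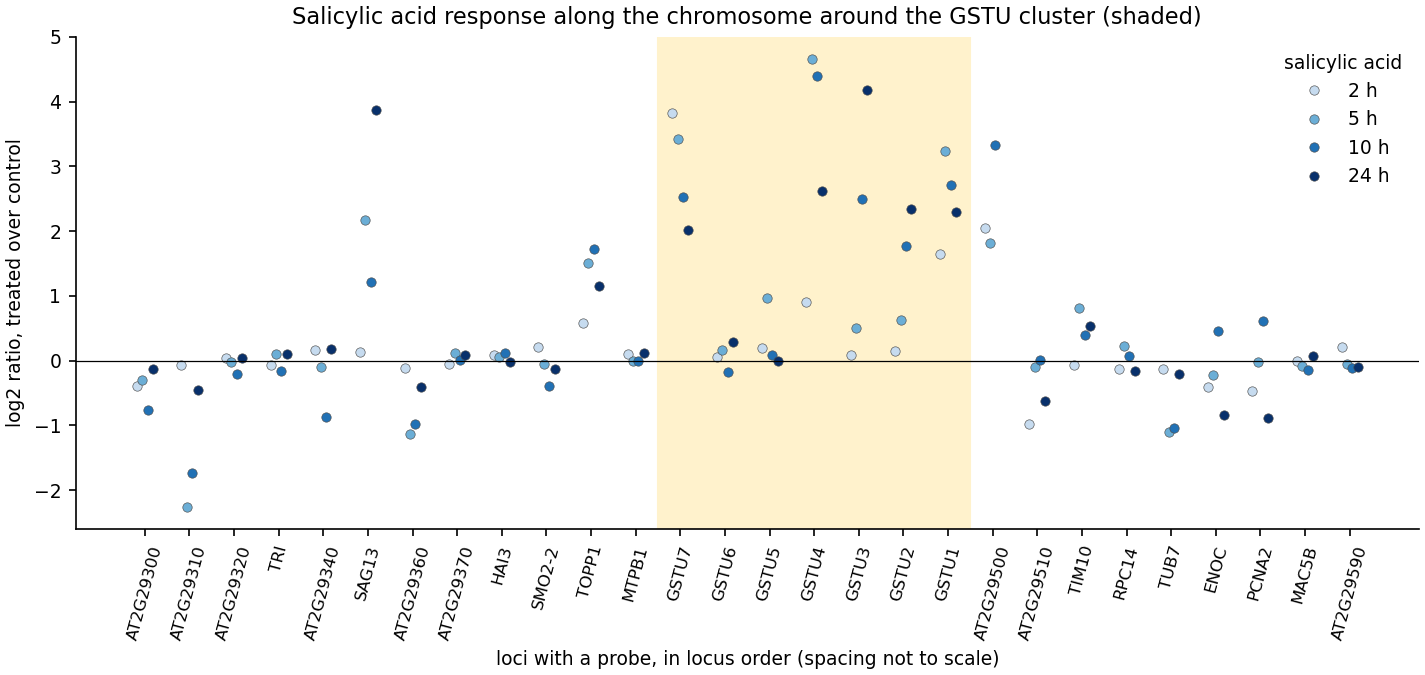
Log2 ratio after salicylic acid for each locus with a probe from AT2G29300 to AT2G29590, in locus order and not to scale; darker points are later times (2, 5, 10 and 24 h, 1 array each) and the shaded band holds the 7 cluster genes. High points in the band belong to GSTU7, GSTU4, GSTU3, GSTU2 and GSTU1, with GSTU6 and GSTU5 under 1 between them; outside it TOPP1, AT2G29500 and SAG13 pass 1 at some time, and AT2G29310, AT2G29360 and TUB7 pass -1.

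Markers of other organs were checked beside these values. The leaf markers ranged from -2.73 to 0.50 over the 6 arrays, the lower end being LHCB3, which was saturated on 4 of them. PYK10, a gene best known from roots, and the root hair genes COBL9, RHD6 and EXPA7 were well above background at 5, 10 and 24 h, although roots were left out of the samples. Most probes carry this mark, which was missing at those times from 713 to 2579 of 21500 in Cy3 and 293 to 980 in Cy5. The floral gene AP3 carried it on 3 of these arrays and PI and AG on 2. COBL9, RHD6 and EXPA7 were at surrogate values on 3, 3 and 2 of the 6 arrays. The mark is therefore not evidence of root RNA. PYK10 fell by 1.06 over the SA arrays (adjusted p = 0.0442). The log2 ratios of the root hair genes lay between -0.23 and 0.15, and the floral genes AP3, PI and AG between -0.15 and 0.69. What part organ composition has in the ratios of the cluster was not tested.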

How the data were processed

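RNA was measured on 6 arrays with 2 channels, each with 21500 probes apart from controls. Each array's deposited file is a spot table of Agilent's Feature Extraction software, per the file headers, with mean and local background intensity in both channels and the software's log10 ratio of Cy5 over Cy3; no source used here gives its version or settings. The deposited series table holds a linear ratio, whose log correlated with the scanner ratio at r = 0.717 to 0.994 across probes and whose column medians were 0.994, 0.959, 0.966, 1.03, 1.00 and 1.01 (2, 5, 10 and 24 h, line 1, line 2). No source used here says how it was normalized by the authors, and this ratio is blank for 318 to 7067 probes.

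Background was corrected with normexp (offset 50, which pulls ratios of dim spots toward 0) and ratios were normalized by loess within arrays. Control and outlier spots were left out, 10 to 25 per array but 1722 (8.01%) at 24 h. Whether a mean log2 ratio, slope or difference departed from 0 was tested with limma 3.58.1 in R 4.3.3 (lmFit, eBayes). The p-values were adjusted over all probes by the Benjamini-Hochberg method. Variation of the control from array to array enters each ratio and was not estimated apart from that of the Cy5 plant. If several arrays shared the same control RNA, which the labels do not say, the spread between control plants is left out. The means used the 4 SA or the 2 overexpressor arrays, the slope the SA arrays and the difference 6 arrays, on probes well above background on at least 2 arrays and with 3 values (SA), both values (overexpressors) or 4 values (difference). On the 3 dim arrays nearly every spot carries the well-above-background mark, so surrogate use was counted as dim too. Precision is limited by the small number of arrays. Figures were drawn in Python 3.11.15 with matplotlib 3.10.9, and the fits were tested on simulated data.

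A single locus is given by the files for 21342 probes, 158 probes stay unnamed, and the RefSeq table holds 21157 of the loci. The members, lists and tests were chosen with earlier results of these data known. Named genes were the 7 members, SIB1, the 2 highest and 2 lowest SA means of each list (all of lists under 6 genes), flanking loci past 2-fold on all SA arrays, and the 2 loci nearest each member.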

Additional observations from a re-analysis of the deposited data

How the results depend on the processing

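Over the SA mean, the count of called members was 2 and became 4 with the scanner software's ratio and 4 with the deposited series table, and 0 to 3 when single SA arrays were left out. Calls over all probes were 799, against 1264 with offset 16, 1386 with the scanner ratio, 1425 with the series table, and 133 without the 24 h array; without the 5 h or 10 h array limma called 0, with 3617 and 4493 at an unadjusted p under 0.05. For the overexpressors limma called 0 probes (995 unadjusted), against 412 with median centring and 1 with a variance trend. For the difference the count of members was 0, became 1 with offset 16 and stayed 0 when single arrays were left out, while probes called went from 14 to 93 with median centring, 81 with offset 16, 71 with the scanner ratio, 35 with the series table, 34 with a variance trend, and 0 to 61 without single arrays. Members past 2-fold went from 2 to 5 at 2 h (scanner ratio), from 3 to 6 (offset 16, scanner ratio) or 5 (series table) at 5 h, from 0 to 1 in line 1 (scanner ratio), and from 1 to 2 (median centring), 3 (offset 16, and series table with 5 members valued) or 4 (scanner ratio) in line 2. A smaller offset pulls dim ratios less toward 0 by construction; the cause of the other shifts was not tested.

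Some values changed sign. The SA mean of GSTU6 was -0.10 with median centring. In the overexpressors median centring put GSTU2 at -0.52 (adjusted p = 0.0490) and GSTU3 at -0.54 (adjusted p = 0.0421), under 2-fold, and the scanner ratio put GSTU1 at 0.0694, GSTU3 at -0.0736 and GSTU6 at 0.88. Slopes turned for GSTU6 (-0.0598 with median centring, -0.0163 with the scanner ratio), GSTU1 (-0.0325 with offset 16, -0.13 with the scanner ratio) and GSTU4 (-0.22 with the scanner ratio). Slopes without single arrays, a choice made after seeing the data, ran from -0.41 to 0.50 for GSTU1 and -0.92 to 1.57 for GSTU4, both lowest without 2 h, and from -0.0922 to 0.0702 for GSTU6, lowest without 24 h. The difference turned for GSTU6 (-0.68, scanner ratio) and for GSTU5 without single arrays (-0.86 to 0.34, highest without line 2). The SA means of the other 6 members kept their sign under each alternative. Each ratio pairs a Cy5 plant with the control on its own array. A pairing of SA arrays with overexpressor arrays was not possible, because these groups share fewer than 2 replicate numbers and the labels give none.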
